A study of Mus musculus with 12 samples.

Results

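Sprouty1, Sprouty2 and Sprouty4 (Spry1, Spry2 and Spry4), the 3 Spred genes (Spred1, Spred2 and Spred3) and Il17rd, which encodes the receptor-like protein Sef, were followed across 12 one-colour arrays of mouse embryonic stem cells. These are cultured pluripotent cells derived from the early embryo. The genes were taken as every non-control probe whose accession belongs to 1 of these 7 genes, which gave 12 probes. All 7 genes passed the filter on dim probes, among 26841 genes tested. Each of 4 groups held 3 arrays. Cells with both compounds received 1 µM MG132, a proteasome inhibitor, for 30 min and then MG132 together with 250 nM 4OHT for 6 h. The 4OHT group received 250 nM 4OHT alone for 6 h, the MG132 group received 1 µM MG132 for 30 min and then for another 6 h, and the last group was untreated. All groups, untreated cells included, grew in medium with leukaemia inhibitory factor (LIF) and 250 nM PD173074, an inhibitor of fibroblast growth factor (FGF) receptors. The series title concerns transcription that depends on the proteasome and the kinase ERK. 4OHT is the oestrogen receptor ligand 4-hydroxytamoxifen, often used to activate a receptor fusion protein in engineered cells, and the labels used here name neither a fusion protein nor a cell line or clone. Untreated arrays were titled 0 h and no untreated group was titled 6 h, so in each comparison with untreated cells the hours and the compound cannot be told apart.

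Receptor tyrosine kinases such as the FGF receptors signal through Ras, Raf and MEK to ERK, and in mouse embryonic stem cells this route favours exit from self-renewal. Sprouty and Spred proteins are intracellular feedback inhibitors that restrain the step at Ras and Raf, and Spred proteins bring the Ras inactivator neurofibromin, encoded by Nf1, to the membrane. Sef is a transmembrane relative of the interleukin 17 receptors that restrains FGF receptor signalling and holds activated ERK away from the nucleus. Transcription of several of these genes is a known response to ERK activity, and Sprouty2 protein is a known target of the ubiquitin ligases Cbl and Siah2, which lead to the proteasome.

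The sequences just upstream of the transcription start are shown for the genes that rose together, Spry1, Spry2, Spred1 and Il17rd, and for Spred2, which did not pass the test in any comparison. They come from RefSeq on GRCm38.p6, are written 5′ to 3′ on the strand of the gene and end at the base before the start. Capitals mark GGAA on either strand (TTCC on the other), the core bound by ETS transcription factors, several of which are ERK substrates.
Spry1, chr3:37639697-37639946, plus strand: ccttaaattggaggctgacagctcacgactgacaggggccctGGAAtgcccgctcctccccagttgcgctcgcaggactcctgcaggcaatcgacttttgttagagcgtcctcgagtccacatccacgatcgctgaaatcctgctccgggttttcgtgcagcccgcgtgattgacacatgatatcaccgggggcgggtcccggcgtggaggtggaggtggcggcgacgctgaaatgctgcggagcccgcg
Spry2, chr14:105896820-105897069, minus strand: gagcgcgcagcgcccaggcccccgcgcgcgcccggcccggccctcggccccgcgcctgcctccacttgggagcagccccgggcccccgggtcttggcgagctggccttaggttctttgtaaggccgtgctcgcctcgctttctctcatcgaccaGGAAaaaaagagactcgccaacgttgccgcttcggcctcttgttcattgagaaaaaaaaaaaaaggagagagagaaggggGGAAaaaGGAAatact
Spred1, chr2:117120821-117121070, plus strand: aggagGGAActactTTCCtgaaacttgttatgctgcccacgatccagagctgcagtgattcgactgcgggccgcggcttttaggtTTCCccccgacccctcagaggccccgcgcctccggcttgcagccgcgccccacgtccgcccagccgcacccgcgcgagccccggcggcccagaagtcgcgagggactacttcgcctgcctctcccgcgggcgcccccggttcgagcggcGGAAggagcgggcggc
Il17rd, chr14:27038751-27038963, plus strand: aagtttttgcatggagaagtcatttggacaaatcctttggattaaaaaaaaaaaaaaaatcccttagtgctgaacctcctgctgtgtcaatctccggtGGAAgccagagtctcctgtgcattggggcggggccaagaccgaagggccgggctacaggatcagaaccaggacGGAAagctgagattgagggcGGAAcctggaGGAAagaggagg
Spred2, chr11:19924192-19924441, plus strand: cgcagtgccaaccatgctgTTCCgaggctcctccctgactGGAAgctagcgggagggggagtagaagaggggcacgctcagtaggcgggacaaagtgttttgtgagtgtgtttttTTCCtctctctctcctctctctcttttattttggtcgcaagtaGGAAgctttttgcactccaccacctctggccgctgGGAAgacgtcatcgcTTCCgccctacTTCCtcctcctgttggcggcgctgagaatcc

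GGAA occurred 1 time before Spry1, 3 times before Spry2, 4 times before Spred1, 4 times before Il17rd and 7 times before Spred2. The matches nearest the start lay 208 bases before it in Spry1, 9 in Spry2, 16 in Spred1, 12 in Il17rd and 31 in Spred2. GGAA is common, since 93.4% of 32851 mouse promoters held it in windows of up to 250 bases, with a median of 3 matches, so its presence does not set these genes apart. The longer CGGAA, which contains the shorter motif, occurred 1 time before Spred1, 2 times before Spred2, 2 times before Il17rd and not before Spry1 or Spry2, and was held by 25.2% of all promoters on either strand. Both strands were also searched for CCGGAAG (held by 6.91% of promoters), the AP-1 motif TGANTCA (6.75%), the cyclic AMP element TGACGTCA (1.55%), the EGR motif GCGTGGGCG (0.536%), the TATA motif TATAAA (12.4%) and the serum response CArG box (1.47%). None of these was found in the 5 windows shown. The GC content was 62.4% for Spry1, 62.4% for Spry2, 70.8% for Spred1, 56.0% for Spred2 and 50.2% for Il17rd, against a median of 52.4% over all promoters. Spry4 and Spred3 are named only.

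Values are relative intensities, which is the background-subtracted brightness of a probe as a percentage of the 75th percentile of its own array (309.4 to 484.9 intensity units). They compare arrays, not genes, because probes differ in brightness for the same amount of RNA. From 49.5 to 63.2% of the probes on an array were well above background, and precision is set by the small number of arrays. Changes are log2 differences of group means, each with a standard error (SE) and n = 3 per group, with p values from limma adjusted over all 26841 genes and called at 0.05. For each SE, the spread of a gene was estimated from all 12 arrays together. Over all genes, 4OHT arrays deviated from their group mean with an SD of 0.39 to 0.45, against 0.19 to 0.29 for arrays of other groups. Slide 1 held 8 arrays (untreated, 4OHT, and MG132 replicates 1 and 2) and slide 2 held 4 (all 3 with both compounds, and MG132 replicate 3). The replicate 3 arrays differed from replicates 1 and 2 in 8.41% of genes, Spry1 among them (-0.37, SE 0.08, adjusted p = 0.0338).

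The stem cell label was checked against its markers, and 8 of 8 (among them Pou5f1, Sox2 and Nanog) lay well above background on all 12 arrays. Their summed intensity was 178122 to 231998 in cells with both compounds, 260195 to 393157 in 4OHT cells, 204852 to 222828 in MG132 cells and 383120 to 430180 in untreated cells. These sums were not scaled to the 75th percentile of each array, so they include differences in array brightness. That percentile was 309.4, 461.1 and 417.5 on the 4OHT arrays, against 482.8, 484.9 and 456.5 on the untreated arrays. Dppa5a was the brightest stem cell marker (mean 182000 intensity units), and Zfp42 came next (29800). The sums for markers of other cell types, unscaled as well, also differed between groups. The 6 trophoblast markers summed to 6423 to 13625, 5637 to 17731, 3138 to 4191 and 1732 to 2032 in the order both compounds, 4OHT, MG132 and untreated. Most of these sums came from Krt18 (mean 6390 intensity units), and Cdx2 came next (386). Elf5, a defining member, was well above background on 0 arrays. Of the 6 trophoblast markers, 5, 4 to 5, 3, and 3 to 4 per array were well above background. The 6 fibroblast markers summed to 1695 to 2026, 5242 to 11139, 1520 to 1651 and 770 to 976, of which 4 to 5, 2 to 4, 4 and 4 were well above background. Thy1 was the brightest of them, and the defining fibroblast gene Lum was well above background on 0 arrays. The neural markers summed to 851 to 1607, 1678 to 2135, 488 to 767 and 785 to 879 (4, 3 to 5, 3 to 4, and 4 to 5 of 6), with Neurog2 well above background on 0 arrays. The primitive endoderm markers summed to 344 to 568, 306 to 602, 363 to 509 and 275 to 630 (6, 5 to 6, 6 and 6 of 6). The part of these shifts in the results below was not tested, and fewer cells of a type and less RNA per cell cannot be told apart in such bulk samples.

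Spry4 had the widest range of the 7 genes. Its relative intensity was 168, 180 and 160% with MG132 and 4OHT, 286, 254 and 163% with 4OHT, 4.79, 4.46 and 3.27% with MG132, and 24.1, 19.8 and 24.5% in untreated cells. All arrays with 4OHT, with or without MG132, lay above all arrays without it, and all MG132 arrays lay below all untreated ones. On the log2 scale the group means were 0.76 ± 0.09, 1.19 ± 0.43, -4.60 ± 0.29 and -2.14 ± 0.17 in the same order (SD, n = 3 each). The order of the levels was thus 4OHT, MG132 with 4OHT, untreated and MG132, and the first 2 of these did not differ beyond their spread.

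Spry2 had 522, 529 and 600% with MG132 and 4OHT, 1580, 1490 and 1160% with 4OHT, 271, 227 and 207% with MG132, and 346, 358 and 415% in untreated cells on its brighter probe. No pair of groups overlapped, and the order was 4OHT, MG132 with 4OHT, untreated and MG132, with each neighbour in that order past the test. The step between MG132 with 4OHT and untreated was not called with slide and replicate block together (0.83, adjusted p = 0.10), with median centring (0.16, adjusted p = 0.43) or on the dimmer probe (0.18, adjusted p = 0.23). Group means were 2.46 ± 0.11, 3.80 ± 0.24, 1.22 ± 0.20 and 1.90 ± 0.14 on the log2 scale (SD, n = 3 each).

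Spry1 moved over a narrower range. Its relative intensity was 220, 212 and 170% with MG132 and 4OHT, 416, 328 and 328% with 4OHT, 120, 128 and 83.6% with MG132, and 188, 179 and 139% in untreated cells. The 4OHT arrays were the highest and the MG132 arrays the lowest, while the arrays with both compounds overlapped the untreated ones. Group means were 1.00 ± 0.20, 1.83 ± 0.20, 0.12 ± 0.33 and 0.74 ± 0.23 on the log2 scale (SD, n = 3 each). Replicate 3 was the lowest array with both compounds, with MG132 alone and without treatment.

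**Figure D1:**
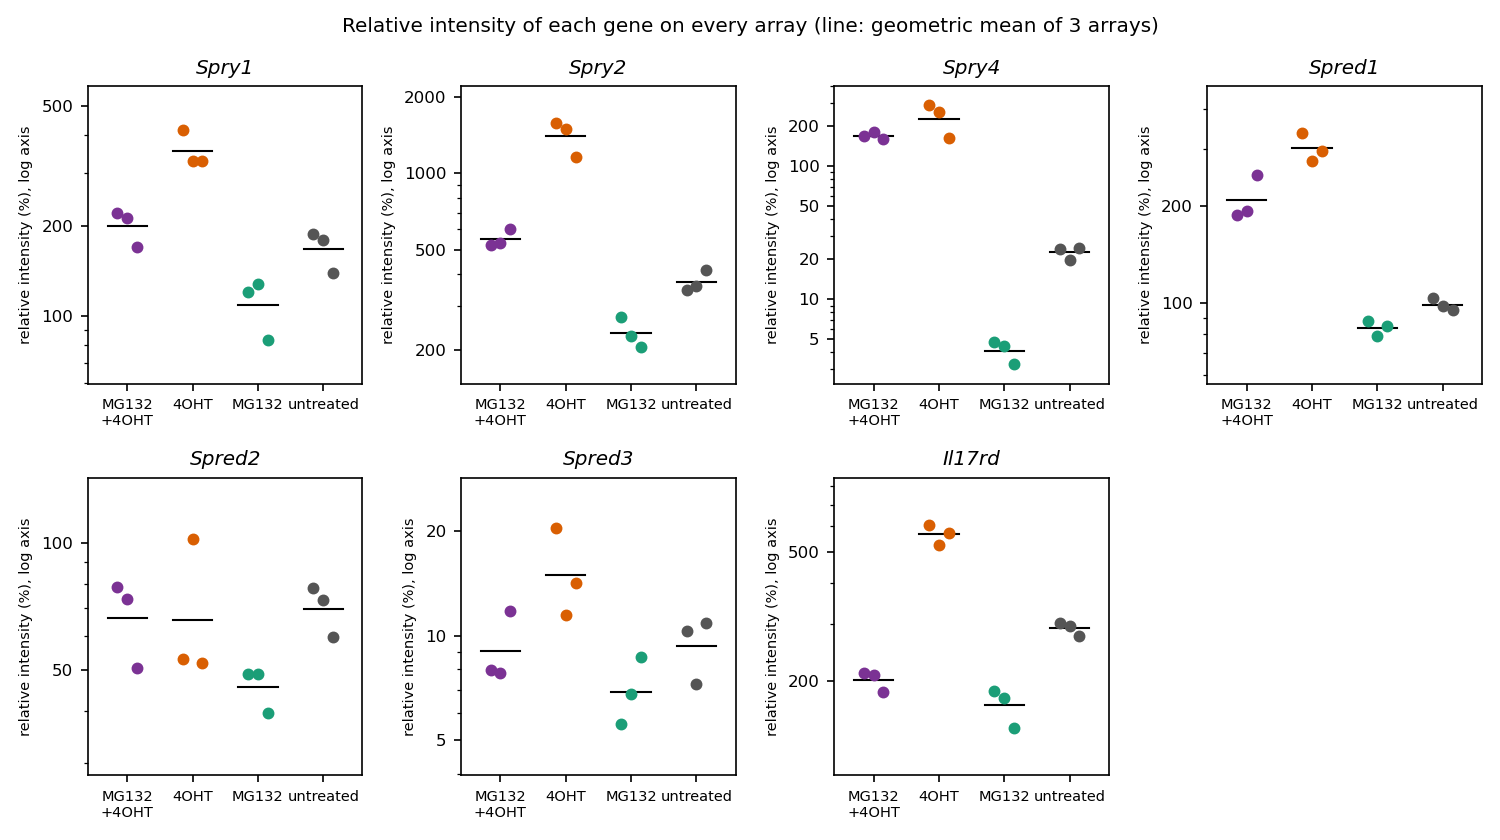
Relative intensity (%, log axis, scaled separately for each gene) of the probe used for each gene on all 12 arrays, by group; points are arrays in the order of replicates 1 to 3 and lines are geometric means of 3 arrays. Spry4 spans 3.27 to 286%, with the MG132 arrays at the bottom, whereas the groups of Spred2 overlap widely except for MG132.

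Spred1, an inhibitor of Ras and Raf signalling, followed the Sprouty genes. It had 188, 193 and 249% with MG132 and 4OHT, 337, 277 and 296% with 4OHT, 88.2, 78.8 and 84.7% with MG132, and 104, 97.7 and 95% in untreated cells on its brighter probe. No pair of groups overlapped, and the order was 4OHT, MG132 with 4OHT, untreated and MG132, where the last step was not past the test. Group means were 1.06 ± 0.23, 1.60 ± 0.14, -0.25 ± 0.08 and -0.02 ± 0.07 on the log2 scale (SD, n = 3 each).

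Spred2, a close relative of Spred1, showed no call in any of the 6 comparisons. Its relative intensity was 78.5, 73.6 and 50.5% with MG132 and 4OHT, 53.1, 102 and 51.9% with 4OHT, 48.9, 48.9 and 39.4% with MG132, and 78.0, 73.0 and 59.7% in untreated cells on its brighter probe. The MG132 arrays were the lowest, and the 4OHT arrays were spread widely, with replicate 2 the highest of the 12. Group means were -0.59 ± 0.34, -0.61 ± 0.56, -1.14 ± 0.18 and -0.52 ± 0.20 on the log2 scale (SD, n = 3 each).

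Spred3, the third gene of this family, was dim, with 24 to 63 intensity units on its brighter probe. Relative intensity was 7.98, 7.79 and 11.8% with MG132 and 4OHT, 20.4, 11.5 and 14.2% with 4OHT, 5.56, 6.80 and 8.66% with MG132, and 10.3, 7.28 and 10.9% in untreated cells. The 4OHT arrays all lay above the untreated and MG132 arrays, and the arrays with both compounds overlapped every other group. Group means were -3.47 ± 0.34, -2.74 ± 0.41, -3.86 ± 0.32 and -3.42 ± 0.32 on the log2 scale (SD, n = 3 each).

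Il17rd departed from the Sprouty genes in the group with both compounds. Its relative intensity was 211, 208 and 184% with MG132 and 4OHT, 606, 525 and 571% with 4OHT, 186, 177 and 143% with MG132, and 301, 295 and 274% in untreated cells on its brighter probe. The arrays with both compounds lay below all untreated arrays and overlapped the MG132 arrays. The order of the levels was 4OHT, untreated, MG132 with 4OHT and MG132, and the last 2 were not called apart (0.26, adjusted p = 0.123). Group means were 1.01 ± 0.11, 2.50 ± 0.10, 0.75 ± 0.20 and 1.54 ± 0.07 on the log2 scale (SD, n = 3 each).

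With 4OHT alone against untreated cells, the comparison that shows the 4OHT response without MG132, all 3 Sprouty genes, Spred1 and Il17rd rose. Spry4 rose most, 10-fold (3.33, SE 0.21, adjusted p = 3.02e-06), followed by Spry2 at 3.76-fold (1.91, SE 0.15, adjusted p = 9.59e-06) and Spred1 at 3.06-fold (1.61, SE 0.12, adjusted p = 1e-05). Spry1 was 2.13-fold higher (1.09, SE 0.19, adjusted p = 0.00185) and Il17rd 1.95-fold higher (0.96, SE 0.12, adjusted p = 0.00017). Spred3 lay at 0.68 (SE 0.26, adjusted p = 0.0828) and Spred2 at -0.09 (SE 0.27, adjusted p = 0.841, 95% interval -0.68 to 0.50). Thus 5 of 7 genes were called higher and 0 lower, where 13.9% of all genes were called higher and 14.7% lower. Groups did not overlap for 6 of 7, against 40.9% of all genes. Their median change was 1.09, and that of all genes 0.03. All 6 arrays compared lay on slide 1, and within that slide the same 5 genes were called (Spry4 at 3.33, adjusted p = 0.00018).

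Under proteasome inhibition, in cells with MG132 and 4OHT against cells with MG132 alone, the Sprouty genes and Spred1 again rose. Spry4 was 41.1-fold higher (5.36, SE 0.21, adjusted p = 2.55e-06), the 12th largest change among all genes. Spred1 rose 2.48-fold (1.31, SE 0.12, adjusted p = 0.000103), Spry2 rose 2.35-fold (1.23, SE 0.15, adjusted p = 0.000337) and Spry1 rose 1.84-fold (0.88, SE 0.19, adjusted p = 0.00821). Il17rd lay at 0.26 (SE 0.12, adjusted p = 0.123), Spred2 at 0.54 (SE 0.27, adjusted p = 0.158) and Spred3 at 0.39 (SE 0.26, adjusted p = 0.30). Called higher were 4 of 7 and lower 0, where 13.9% of all genes were called higher and 12.6% lower. Groups did not overlap for 5 of 7, against 50.2% of all genes. The median change was 0.88 for the 7 genes and 0.07 for all genes. Slide 2 held only 1 MG132 array, and within it Spry4 differed by 5.69, Spry2 by 1.41, Spred1 by 1.30, Spry1 by 1.25 and Il17rd by 0.49. These are given without a test, since the spread there came from the arrays with both compounds alone. With slide as a block over all arrays, Il17rd passed the test (0.49, adjusted p = 0.047), and with slide and replicate block together it did not (0.42, adjusted p = 0.089).

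The difference between these 4OHT responses was tested directly as an interaction. The response without MG132 uses the untreated arrays titled 0 h, whereas both groups with MG132 were treated for the same hours. Hours and compound thus cannot be told apart in this difference either. Spry4 responded more with MG132, by 2.03 log2 units (SE 0.30, adjusted p = 0.00393), and Il17rd responded less, with a difference of -0.70 (SE 0.16, adjusted p = 0.0301). The other 5 were not called, with Spry2 at -0.68 (SE 0.21, adjusted p = 0.0856), Spred2 at 0.63 (SE 0.38, adjusted p = 0.377), Spred1 at -0.30, Spred3 at -0.29 and Spry1 at -0.21. The interval for Spry1 was wide, from -0.82 to 0.39. Among all genes 6.56% were called here. For Spry4 the arrays with both compounds and with 4OHT were not called apart (-0.43, SE 0.21, adjusted p = 0.118), and the level with MG132 alone was the lowest. That level was 14 to 21 intensity units and well above background on the 3 MG132 arrays. With normexp correction in place of the scanner's subtraction the Spry4 difference was 0.41 (adjusted p = 0.29) and the rise under MG132 was 3.15. The Spry2 difference was called with normexp (-0.69, adjusted p = 0.046) and without 4OHT replicate 3 (-0.81, adjusted p = 0.025). The Il17rd difference was not called with slide as a block (-0.48, adjusted p = 0.17), with the mean over probes (-0.37, adjusted p = 0.40), or when any 1 of 8 arrays was left out (adjusted p = 0.059 to 0.082).

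**Figure D2:**
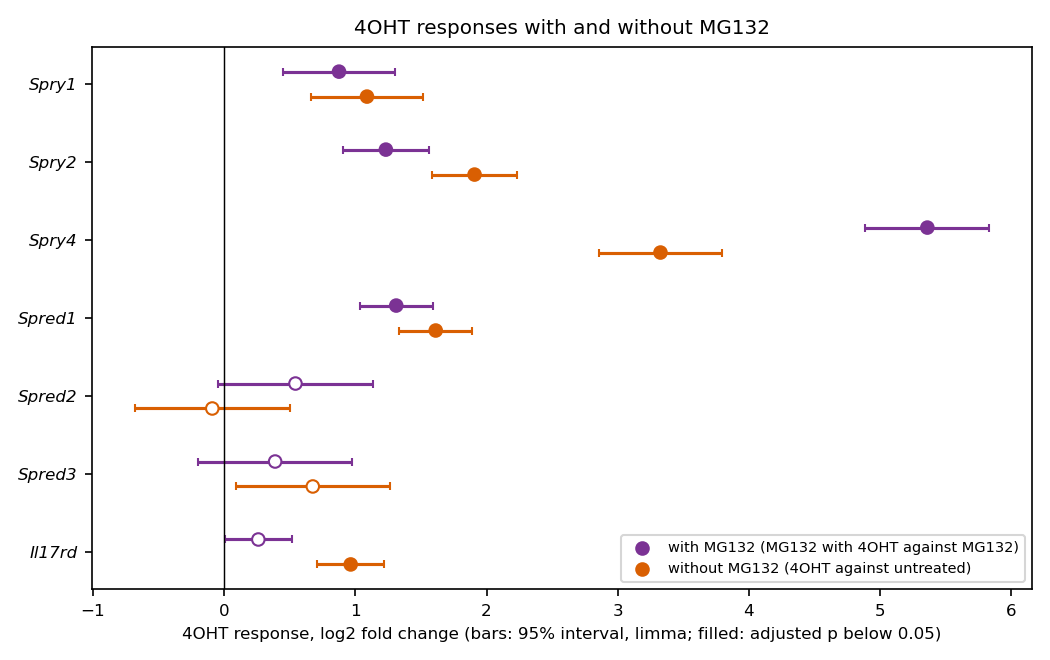
4OHT responses (log2 fold change, horizontal axis) of the 7 genes with MG132 (MG132 with 4OHT against MG132, purple, upper) and without it (4OHT against untreated, orange, lower); bars are 95% intervals from limma and filled points have an adjusted p below 0.05. The Spry4 intervals lie apart, with 5.36 against 3.33, and the Il17rd response is 0.26 with MG132 and 0.96 without.

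MG132 alone against untreated cells lowered Spry4, Il17rd, Spry2 and Spry1. Spry4 fell by 2.46 log2 units (SE 0.21, adjusted p = 1.52e-05), Il17rd fell by 0.79 (SE 0.12, adjusted p = 0.000382), Spry2 fell by 0.67 (SE 0.15, adjusted p = 0.00415) and Spry1 fell by 0.62 (SE 0.19, adjusted p = 0.0238). Spred2 lay at -0.62 (SE 0.27, adjusted p = 0.0872), Spred3 at -0.44 (SE 0.26, adjusted p = 0.208) and Spred1 at -0.24 (SE 0.12, adjusted p = 0.152). Called lower were 4 of 7 and higher 0, where 19.0% of all genes were called lower and 24.1% higher. Groups did not overlap for 6 of 7, against 59.5% of all genes. The 7 genes had a median of -0.62 and all genes 0.07. With normexp correction the Spry4 change was -0.84 (adjusted p = 0.0006). Spry1 was not called without MG132 replicate 3 (-0.43, adjusted p = 0.081), without untreated replicate 1 (adjusted p = 0.084) or 2 (adjusted p = 0.076), or within slide 1 (-0.43, adjusted p = 0.10), where Spry4 was at -2.30, Il17rd at -0.68 and Spry2 at -0.58, all 3 called. Centring each array on its median, which moved the median of all genes to -0.27, called all 7 genes lower.

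In cells given 4OHT, MG132 lowered Il17rd and Spry2 most. With MG132 and 4OHT against 4OHT alone, Il17rd fell by 1.5 log2 units (SE 0.12, adjusted p = 5.35e-06), Spry2 fell by 1.35 (SE 0.15, adjusted p = 4.66e-05), Spry1 fell by 0.83 (SE 0.19, adjusted p = 0.0047) and Spred1 fell by 0.54 (SE 0.12, adjusted p = 0.00481). Spred3 was called at -0.73 (SE 0.26, adjusted p = 0.0411) although its groups overlapped, and leaving out any 1 of 6 arrays ended that call (adjusted p = 0.053 to 0.13). Spry4 lay at -0.43 (SE 0.21, adjusted p = 0.118, 95% interval -0.90 to 0.04) and Spred2 at 0.02 (SE 0.27, adjusted p = 0.965). Called lower were 5 of 7 and higher 0, where 20.9% of all genes were called lower and 29.4% higher. Groups did not overlap for 4 of 7, a share near the 57.5% of all genes. The median of the 7 was -0.73, that of all genes 0.13. No slide held arrays of both groups, so slide and MG132 can be separated only through the single MG132 array on slide 2. With slide as a block Il17rd (-1.16, adjusted p = 0.0023) and Spry2 (-1.09, adjusted p = 0.018) were called, and with slide and replicate block together Il17rd was (-1.25, adjusted p = 0.0048) and Spry2 was not (-1.08, adjusted p = 0.054). With slide as a block Spry1 (-0.27, adjusted p = 0.55), Spred1 (-0.56, adjusted p = 0.12) and Spred3 (-1.22, adjusted p = 0.094) were not called.

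**Figure D3:**
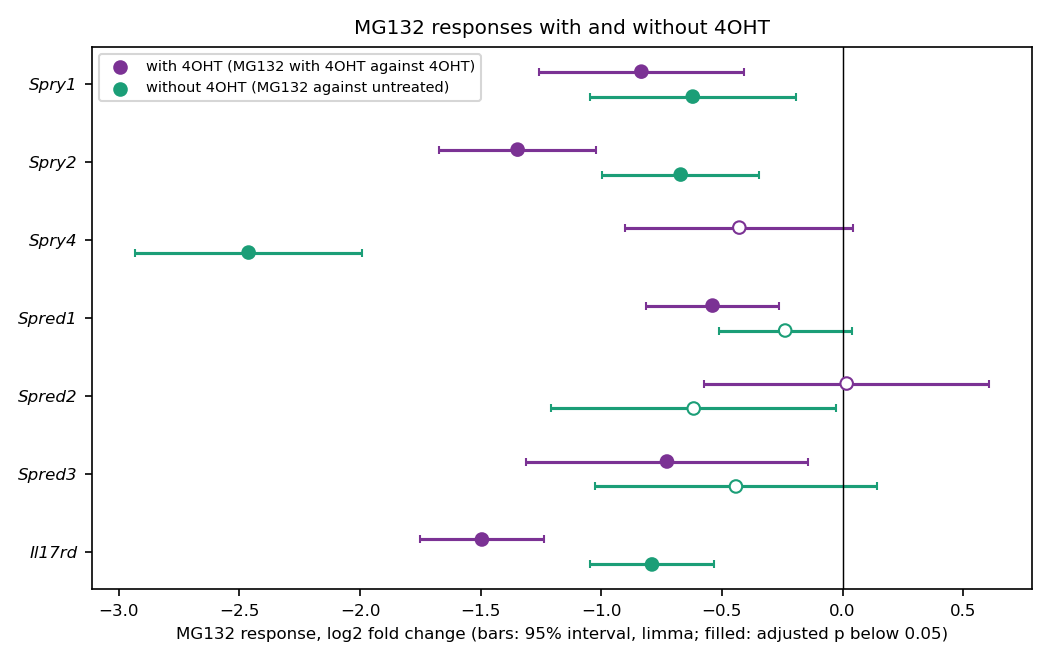
MG132 responses (log2 fold change, horizontal axis) of the 7 genes with 4OHT (MG132 with 4OHT against 4OHT, purple, upper) and without it (MG132 against untreated, green, lower); bars are 95% intervals from limma and filled points have an adjusted p below 0.05. All values but Spred2 with 4OHT (0.02) are below 0, and Spry4 lies at -2.46 without 4OHT and at -0.43 with it.

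Set against untreated cells, the group with both compounds had higher Spry4, Spred1 and Spry2 and lower Il17rd. Spry4 was 7.45-fold higher (2.90, SE 0.21, adjusted p = 2.98e-06), Spred1 2.11-fold higher (1.07, SE 0.12, adjusted p = 5.33e-05) and Spry2 1.48-fold higher (0.56, SE 0.15, adjusted p = 0.00805). Il17rd fell by 0.53 log2 units (SE 0.12, adjusted p = 0.003). Spry1 lay at 0.26 (SE 0.19, adjusted p = 0.279), Spred2 at -0.07 and Spred3 at -0.05. Called higher were 3 of 7 and lower 1, where 33.2% of all genes were called higher and 22.5% lower. Groups did not overlap for 4 of 7, against 72.0% of all genes, and the median was 0.26 for these genes against 0.19 for all. No slide held arrays of both groups, so slide and the compounds can be separated only through the single MG132 array on slide 2. With slide as a block Spry4 (3.4, adjusted p = 0.00039), Spred1 (1.05, adjusted p = 0.011) and Spry2 (0.82, adjusted p = 0.043) were called. Il17rd was not (-0.19, adjusted p = 0.45), nor with the mean over probes (-0.06, adjusted p = 0.75). With slide and replicate block together Spry2 (0.83, adjusted p = 0.10) and Il17rd (-0.29, adjusted p = 0.25) were not called. Median centring, which moved the median of all genes to -0.21, left Spry2 at 0.16 (adjusted p = 0.43).

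The scaling set how calls among all genes divided. Higher calls made up 48.7% of calls for 4OHT against untreated, against 30.9% with median centring, 38% with quantile normalization and 68.5% with normexp. For MG132 with 4OHT against MG132 they made up 52.4%, against 42% with median centring. The share for MG132 against untreated was 56%, against 27.6% with median centring. For MG132 with 4OHT against 4OHT it was 58.4%, against 38.7%, and against untreated 59.6%, against 30.8% with median centring and 48.4% with quantile normalization. For the difference of responses it was 44.9%, against 58.6% with median centring. No change of the 7 genes that was called with median centring, quantile normalization or normexp had the opposite sign with the 75th percentile.

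Several genes were read by more than 1 probe, and a fit with each of 34332 probes as its own row asked whether they moved alike. The dimmer Spry2 probe rose with 4OHT by 0.95 (SE 0.12, adjusted p = 0.000213), less than the 1.91 of the brighter probe, and fell by 0.78 with MG132 (SE 0.12, adjusted p = 0.000491). On that probe the 4OHT response was 0.95 with MG132 as well (SE 0.12, adjusted p = 0.000444), and the group with both compounds was not called against untreated cells (0.18, adjusted p = 0.23). The dimmer Spred1 probe rose with 4OHT by 2.46 (SE 0.30, adjusted p = 0.00018), with values of 105, 39.8 and 49.2% with 4OHT against 9.51, 11.6 and 11.2% in untreated cells, and by 1.33 with 4OHT under MG132 (SE 0.30, adjusted p = 0.00889). With MG132 alone this probe was not called (0.04, adjusted p = 0.93), and its MG132 and untreated arrays overlapped.

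Il17rd's probes parted. The dimmer Il17rd probe had 15.8, 12.6 and 17.6% with MG132 and 4OHT, 28.3, 12.4 and 13.1% with 4OHT, 9.30, 10.1 and 13.2% with MG132, and 11.9, 9.63 and 13.2% in untreated cells, and its groups overlapped in each pair. It was called in none of the 6 comparisons (4OHT against untreated 0.54, SE 0.30, adjusted p = 0.209), so each Il17rd call rests on the brighter probe. The dimmer Spred2 probe was not called either (0.59 for 4OHT against untreated, SE 0.26, adjusted p = 0.116), and its lone high array was 4OHT replicate 1 at 21.1%, whereas that of the brighter Spred2 probe was replicate 2 at 102%. For MG132 against untreated the dimmer Spred2 probe lay at 0.20 (adjusted p = 0.567) and the brighter at -0.62, neither called. A second Spred3 probe, at 0.866 to 4.59%, did not pass the filter on dim probes and was not tested. Among all probes 29.0% were called for 4OHT against untreated, 42.6% for MG132 against untreated, 26.1% for MG132 with 4OHT against MG132, 49.9% against 4OHT, 54.9% against untreated and 6.21% for the difference.

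**Figure D4:**
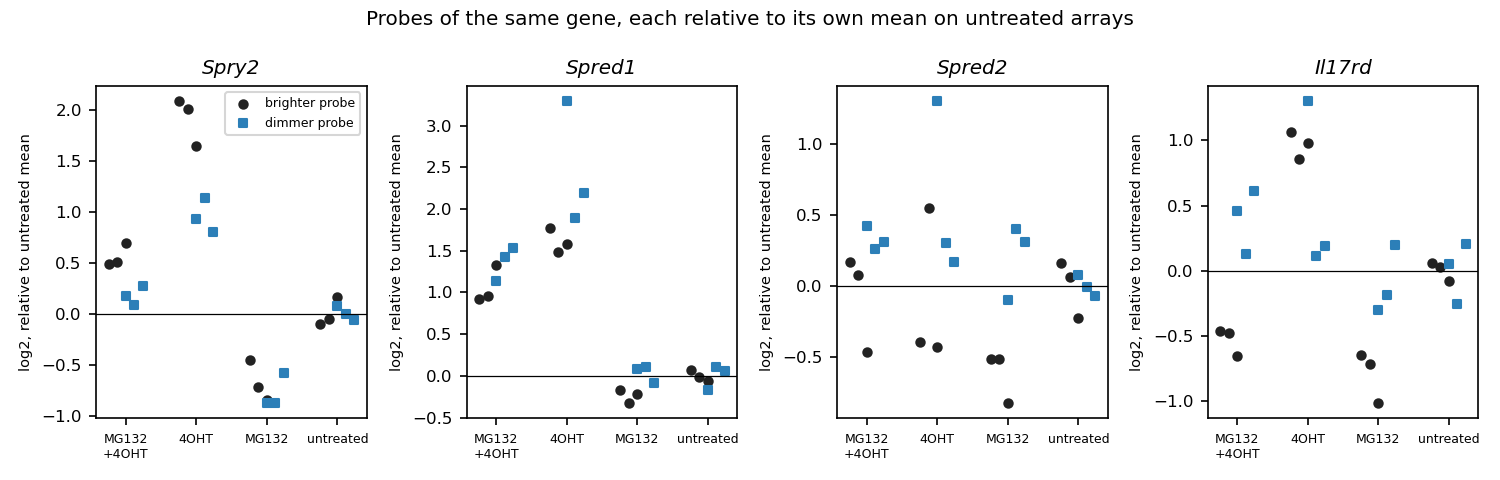
Log2 intensity of each probe relative to its own mean on untreated arrays, for the 4 genes with 2 tested probes; circles are the brighter and squares the dimmer probe, 3 arrays per group in replicate order. Both Spry2 and both Spred1 probes are above 0 on every 4OHT array, while the dimmer Il17rd probe stays near 0 on MG132 arrays, where the brighter one is below 0.

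The genes around this feedback loop were followed as lists, described by counts and medians. Their counts are to be read against those over all genes, of which 13.9% were called higher and 12.6% lower with 4OHT under MG132 (median 0.07), and 13.9% higher and 14.7% lower with 4OHT alone (median 0.03). With MG132 in cells given 4OHT 29.4% were called higher and 20.9% lower, and with MG132 alone 24.1% and 19.0%. For MG132 in cells given 4OHT no slide held arrays of both groups, and calls over all genes went from 13481 to 5335 with slide as a block. No values with slide as a block are given for the list genes. Of 17 ERK output genes, 11 rose and 1 fell with 4OHT under MG132 (median 0.88), and 11 rose and 1 fell with 4OHT alone (median 1.31). Egr1, an immediate-early transcription factor gene, rose by 8.35 under MG132 (SE 0.21, adjusted p = 6.16e-08), and its response was larger with MG132 by 5.25 (SE 0.30, adjusted p = 3.8e-05), the same direction as Spry4. Egr1 also fell by 2.96 with MG132 alone (SE 0.21, adjusted p = 5.17e-06), as Spry4 did. The list as a whole divided, with 3 genes called higher and 3 lower for the difference of responses, where 6.56% of all genes were called. With MG132 alone 4 rose and 7 fell (median -0.10), against 24.1% and 19.0% of all genes. Fosl1 rose by 4.33 with MG132 alone (SE 0.34, adjusted p = 9.36e-06), and its response was smaller with MG132, with a difference of -2.30 (SE 0.485, adjusted p = 0.0201). Phlda1, a gene induced by growth factor signalling, rose by 4.17 under MG132 and by 5.36 without it (SE 0.26 each, adjusted p = 1.13e-05 and 8.99e-07). Egr3, a relative of Egr1, was not well above background in MG132 or untreated cells and passed the filter only through the groups with 4OHT. It was at least 23.1-fold higher with 4OHT under MG132 and at least 67.8-fold higher with 4OHT alone, and these bounds were not tested.

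Other negative regulators of receptor and Ras signalling divided. Of 17, 8 rose and 4 fell with 4OHT under MG132 (median 0.46), where 13.9% of all genes were called higher and 12.6% lower. With 4OHT alone 8 rose and 4 fell (median 0.18), where 13.9% of all genes were called higher and 14.7% lower. The ERK phosphatase gene Dusp4 rose by 3.33 under MG132 (SE 0.24, adjusted p = 2.5e-05) and by 3.68 without it (SE 0.24, adjusted p = 3.61e-06). Dusp2, which encodes another phosphatase of these kinases, responded less with MG132 by a difference of -2.49 (SE 0.33, adjusted p = 0.00266), and rose by 2.28 with MG132 alone (SE 0.24, adjusted p = 4.42e-05). Socs3, a feedback inhibitor of LIF signalling, fell by 2.18 with MG132 alone (SE 0.14, adjusted p = 2.82e-06) and by 2.08 in cells given 4OHT (SE 0.14, adjusted p = 2.48e-06). With MG132 and 4OHT against 4OHT, 4 of the 17 rose and 6 fell (median -0.21), against 29.4% and 20.9% of all genes, and with MG132 alone 3 rose and 5 fell (median 0.07), against 24.1% and 19.0%.

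Partners and regulators of the Sprouty and Spred proteins were called with 4OHT about as often as genes in general. Of 14 tested, 3 rose and 1 fell with 4OHT under MG132 (median 0.15), and 2 rose and 2 fell with 4OHT alone (median -0.04), where 13.9% of all genes were called higher and 12.6% lower under MG132 and 13.9% and 14.7% without it. Siah2, a ubiquitin ligase for Sprouty2, rose by 1.72 with MG132 in cells given 4OHT (SE 0.17, adjusted p = 2.93e-05) and by 1.34 with MG132 alone (SE 0.17, adjusted p = 0.000186). Its relative Siah1a rose by 0.78 with MG132 alone (SE 0.08, adjusted p = 2.88e-05). Nf1, the Ras inactivator that Spred proteins recruit, rose by 0.98 with MG132 in cells given 4OHT (SE 0.23, adjusted p = 0.00592) and by 0.73 with MG132 alone (SE 0.23, adjusted p = 0.0286). Lztr1, an adaptor for degradation of Ras proteins, fell by 0.48 with 4OHT under MG132 (SE 0.09, adjusted p = 0.00324). With MG132 in cells given 4OHT 6 of the 14 rose and 2 fell (median 0.35), against 29.4% and 20.9% of all genes. With MG132 alone 5 rose and 3 fell (median 0.13), against 24.1% and 19.0%.

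The cascade from receptor to ERK held 23 tested genes, of which 4 rose and 2 fell with 4OHT under MG132 (median 0.05) and 5 rose and 3 fell with 4OHT alone (median 0.21). Under MG132 13.9% of all genes were called higher and 12.6% lower, and with 4OHT alone 13.9% and 14.7%, so these counts lie near those over all genes. The kinase gene Braf rose by 0.65 under MG132 (SE 0.17, adjusted p = 0.0177) and by 1.13 without it (SE 0.17, adjusted p = 0.000651). The receptor gene Fgfr4 rose by 3.02 with 4OHT alone (SE 0.35, adjusted p = 0.000137) and by 2.62 with MG132 alone (SE 0.35, adjusted p = 0.000215). Mapk3, which encodes ERK1, fell by 0.96 with MG132 alone (SE 0.12, adjusted p = 0.000144) and by 1.05 in cells given 4OHT (SE 0.12, adjusted p = 6.63e-05). With MG132 in cells given 4OHT 5 of the 23 rose and 6 fell, against 29.4% and 20.9% of all genes. With MG132 alone 5 rose and 6 fell, against 24.1% and 19.0%. Of 3 interleukin 17 receptors tested, the relatives of Il17rd, only Il17rc was called with 4OHT, with a fall by 1.82 for 4OHT alone (SE 0.18, adjusted p = 5.41e-05) and by 0.85 under MG132 (SE 0.18, adjusted p = 0.00746). Over the 30 pairs of a list and a comparison, median centring called fewer genes higher in 19, as many in 10 and more in 1. For the cascade with MG132 alone it called 1 gene higher and 9 lower, where it called 3606 higher and 9453 lower of all 26841 genes. No called change named here from these lists turned its sign under median centring, quantile normalization or normexp.

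**Figure D5:**
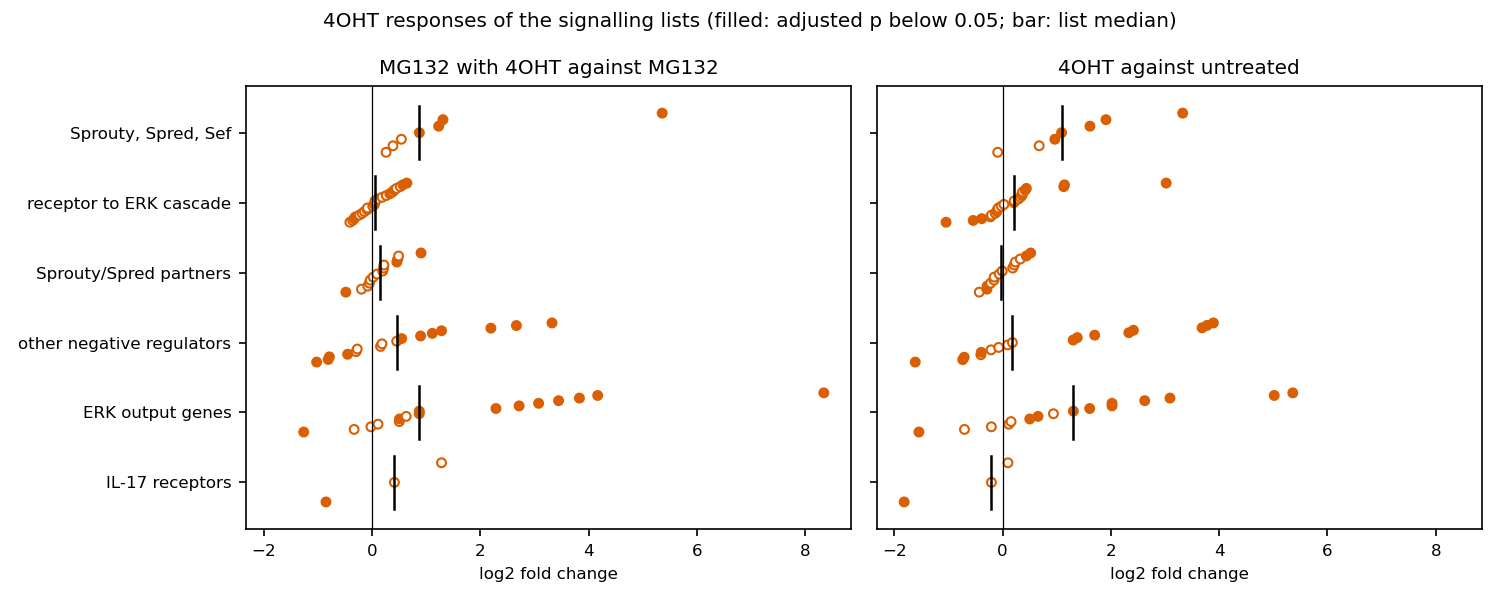
4OHT responses (log2 fold change, horizontal axis) of the Sprouty, Spred and Sef genes and of 5 gene lists, with MG132 on the left and without it on the right; points are genes, filled where the adjusted p is below 0.05, and bars are list medians. Genes with no array above background in a group are not drawn but count in the medians; the Sprouty, Spred and Sef median is 0.88 with MG132 and 1.09 without, against 0.05 and 0.21 for the cascade.

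The genes whose log2 levels most resembled each of the 7 were found by Pearson's r over the 12 arrays among 15915 named genes. These arrays fall into 4 groups and share slides and scaling, so the values describe likeness only. Spry4 was most like Ddx21, which encodes an RNA helicase (r = 0.996), Dipk2a (0.989) and Prmt6, an arginine methyltransferase gene (0.985). Spry2 was most like Hs3st3b1, a heparan sulphate sulphotransferase gene (0.993), and Spry1 like Bmp4, which encodes a growth factor (0.981). Spred1 was most like Rlim, a ubiquitin ligase gene (0.989), and Il17rd like Hars, a histidine tRNA synthetase gene (0.99). The closest genes to Spred3 and Spred2 were less alike, with Mtrr at 0.931 and Magoh at 0.877.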

How the data were processed

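Scanner output was deposited for each array as intensity values, written by Agilent Feature Extraction (version 11.0.1.1 in the file headers). The deposited intensity used was the processed one, background-subtracted and detrended within an array, and was not scaled between arrays; a series-wide deposited table held the same values (largest difference 0). The series' design text calls the 3 arrays per group biological replicates. Of 62976 spots, 3671 control spots and spots with outlier marks were left out, spots of 1 probe were averaged (56605 probes), and accessions were matched to RefSeq gene names of GRCm38.p6 (32994 probes). No spot was saturated. Intensities were put on the log2 scale and each array's 75th percentile was subtracted. A probe entered the fit if every array of some group had it well above background (34332 did), and the brightest represented each gene (26841 genes, 15987 named). limma 3.58.1 in R 4.3.3 was fitted over all 12 arrays with 1 coefficient per group (residual degrees of freedom 8, prior 2.08) and Benjamini-Hochberg adjustment at 0.05, and checked on simulated data. Slides were read from the file headers. Plots used matplotlib 3.10.9. A fold against a group with no array well above background is given as a lower bound, against the higher of the probe's own signal and the lowest signal well above background on each array.

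Named genes were the 7 genes and their probes, up to 3 called genes per list and comparison with the largest change, of which some are given, and the 3 genes most like each member, of which some are given. The members, lists and tests were chosen with earlier results of these data known. Cav1 and Il17rb were on the lists but did not pass the filter. Alternatives were normexp background correction (offset 50, on median signals), quantile normalization, median centring, no filter, probes above background on all arrays, the mean over probes, robust variance with an intensity trend, a fit of only the arrays compared, slide and replicate blocks, arrays within 1 slide, the series-wide table and leaving out each array.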

Additional observations from a re-analysis of the deposited data

Results flagged for a closer look

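The 4OHT response differed with and without MG132 in Spry4, by 2.03 log2 units, and in Il17rd, by -0.7, both by the interaction test (adjusted p = 0.00393 and 0.0301). Over 23 other settings the Spry4 difference ranged from 0.41 to 2.37 and passed the test in 22, with normexp background correction the exception. These settings include the series-wide table, whose values were the same and could not give another result. The Il17rd difference ranged from -0.82 to -0.37 and passed in 10 of 23, 4 of 12 of those that left out an array among them. The level of Spry4 in MG132 cells was 14 to 21 intensity units, and the dimmer Il17rd probe gave a difference of -0.04 (adjusted p = 0.973). The part of slide, hours of treatment or background correction in either difference was not tested beyond these values.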

How the results depend on the processing

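Over all settings, 968 of the recomputed changes of the 7 genes stayed on their side of the threshold, 39 were no longer called and 15 became called. The settings include the series-wide table, which held the same values and so could not change a call. In 0 cases did a called change have the opposite sign. In all 25 settings Spry4, Spry2, Spred1, Spry1 and Il17rd were called higher with 4OHT against untreated, and the first 4 with 4OHT under MG132. Of these settings, that within slide 2 rested on 1 MG132 array, assumed to vary like the arrays with both compounds. With median centring, 7 genes were called lower for MG132 against untreated in place of 4, while lower calls over all genes went from 5093 to 9453. The difference of responses had 1 call in place of 2 with median centring, no filter, the mean over probes, or slide as a block, and 1 to 3 when an array was left out. With normexp its Spry4 call was lost and Spry2 was called. With slide as a block 2 genes in place of 5 were called for MG132 with 4OHT against 4OHT, and with slide and replicate block together 1 was (Il17rd, with Spry2 lost), with 2 in place of 4 against untreated and 1 for the difference. The replicate block alone gave 5, 5, 4, 5, 4 and 2 called genes in the order 4OHT against untreated, MG132 against untreated, MG132 with 4OHT against MG132, against 4OHT, against untreated, and the difference. Replicate numbers were not taken as pairing the samples, since not every same-numbered pair deviated together. Same-numbered arrays correlated in their deviations at -0.06 to 0.16 for number 1, 0.07 to 0.15 for number 2 and 0.12 to 0.41 for number 3, and arrays of different numbers at -0.29 to 0.19. All pairs of number 3 lay above 0, and 4 of 12 arrays correlated best with their own number.

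Leaving out an array gave 5 to 6, 3 to 5, 4, 4 to 5 and 4 called genes of the 7 in the first 5 of these comparisons. Over all genes, calls for 4OHT against untreated were 7666, with 14466 under no filter and 5073 with only the arrays compared. For MG132 with 4OHT against MG132 they were 7108, with 2987 under the slide block, 2090 within slide 2, 2312 under both blocks, 4723 without MG132 replicate 2, 4675 without MG132 and 4OHT replicate 1 and 4621 without its replicate 2. Against 4OHT they were 13481, with 5335 under the slide block and 4833 under both blocks. Against untreated they were 14935, with 7023 and 6056. For the difference they were 1760, with 804 under the slide block and 1038 to 1129 without some single arrays. The causes were not tested, other than that fewer arrays entered some of these fits. Spry4 with MG132 (14 to 21 intensity units) and Spred3 (24 to 63) were the dimmest values on the probes used for the 7 genes.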
